A study of Mus musculus with 4 samples.

Results

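Hox genes encode homeodomain transcription factors that give cells an address along the head-to-tail axis of the body and keep that address in adult tissue. They were taken here as every gene symbol made of "Hox", a cluster letter from a to d and a number, which gave 39 of the 26214 symbols in the count files: 11 in HoxA, 10 in HoxB, 9 in HoxC and 9 in HoxD. They were read in polyadenylated RNA of mouse colon cancer tissue induced with AOM/DSS, the pairing of azoxymethane, which mutates DNA, with dextran sulfate sodium, which damages the colonic lining. In the Gsk3b (IEC-/-) group, of 2 libraries, the labels give the gene for the kinase GSK3B as absent from intestinal epithelial cells, and in the Gsk3b (IEC+/+) group, also of 2 libraries, as present; the treatment and the tissue are common to both. The alleles, the Cre driver, the strain, age and sex of the mice are not given in the sources used here. Whether the 2 libraries within each genotype are separate mice or tumours is not stated in the labels, and the p-values therefore measure the spread between these libraries alone.

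The genes of a Hox cluster lie in a row in the order in which they are used along the body. Those at the 3′ end of a cluster carry low numbers and act towards the head, and those at the 5′ end carry high numbers and act towards the tail; genes of the same number in different clusters are paralogs. The hindgut, from which the colon forms, is a territory of the high-numbered genes, and mouse Hoxa13 and Hoxd13 are needed for its terminal part.

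Total counts were 26599419 and 25472503 in IEC-/- and 27135796 and 27218515 in IEC+/+. Levels are given as CPM, which are counts scaled to a common library size, and the 3 counts that a 0 allows came to 0.108 to 0.116 CPM per library, for counting error only. Gsk3b itself was at 152 and 149 CPM in IEC-/-, against 170 and 157 in IEC+/+ (log2 fold change of -0.12, SE 0.12, adjusted p = 0.681 by edgeR), so these whole-tissue counts do not by themselves show its loss; the sources used here do not say which exons are removed, and the tissue holds other cells than epithelium. One library stood apart. Squamous epithelial markers, 8 of 8 detected in at least 1 library, summed to 25.8 CPM in IEC-/- replicate 1 and 2661 CPM in IEC-/- replicate 2, against 142 and 116 in IEC+/+, and the basal keratin gene Krt5 had 0 and 20862 reads in IEC-/- against 5 and 274 in IEC+/+. Results that rest on IEC-/- replicate 2 are therefore given without it as well. With one library left out its group holds a single sample, which is assumed to vary like the other group, and the pair of that other group alone gives the spread; a call made so describes that library and not the genotype. The part of squamous tissue in them was not tested. Epithelial markers, 12 of 12 detected, summed to 7354 and 7175 CPM in IEC-/-, against 13128 and 11178 in IEC+/+, so the epithelium that the tissue label implies was present, and 2 of them, Krt20 and Lgals4, were called lower in IEC-/- (edgeR, adjusted p under 0.05, the limit for every call given here). In bulk tissue, fewer cells of a type and less RNA per cell cannot be told apart.

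The tumours carried a posterior Hox profile in which the genes numbered 9 to 13 held most of the signal. Of the 39 genes, 28 had at least 1 read and 11 had none in any library: Hoxb1, Hoxd1 and the 9 HoxC genes. These were 28.2% of the members, and 21.3% of all 26214 symbols were likewise at 0. Levels of different genes were compared as CPM per kilobase of exon. On that scale the genes numbered 9 to 13 held 83.1% and 85.2% of the Hox signal in IEC-/- and 89.2% and 88.1% in IEC+/+, those numbered 4 to 8 held 15.6% and 13.2% in IEC-/- and 9.58% and 10.7% in IEC+/+, and those numbered 1 to 3 held 1.29% and 1.60% in IEC-/- and 1.23% and 1.15% in IEC+/+. The 3 expressed genes of paralog number 13 alone held 52.1% and 49.0% in IEC-/- and 54.9% and 52.5% in IEC+/+.

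**Figure D1:**
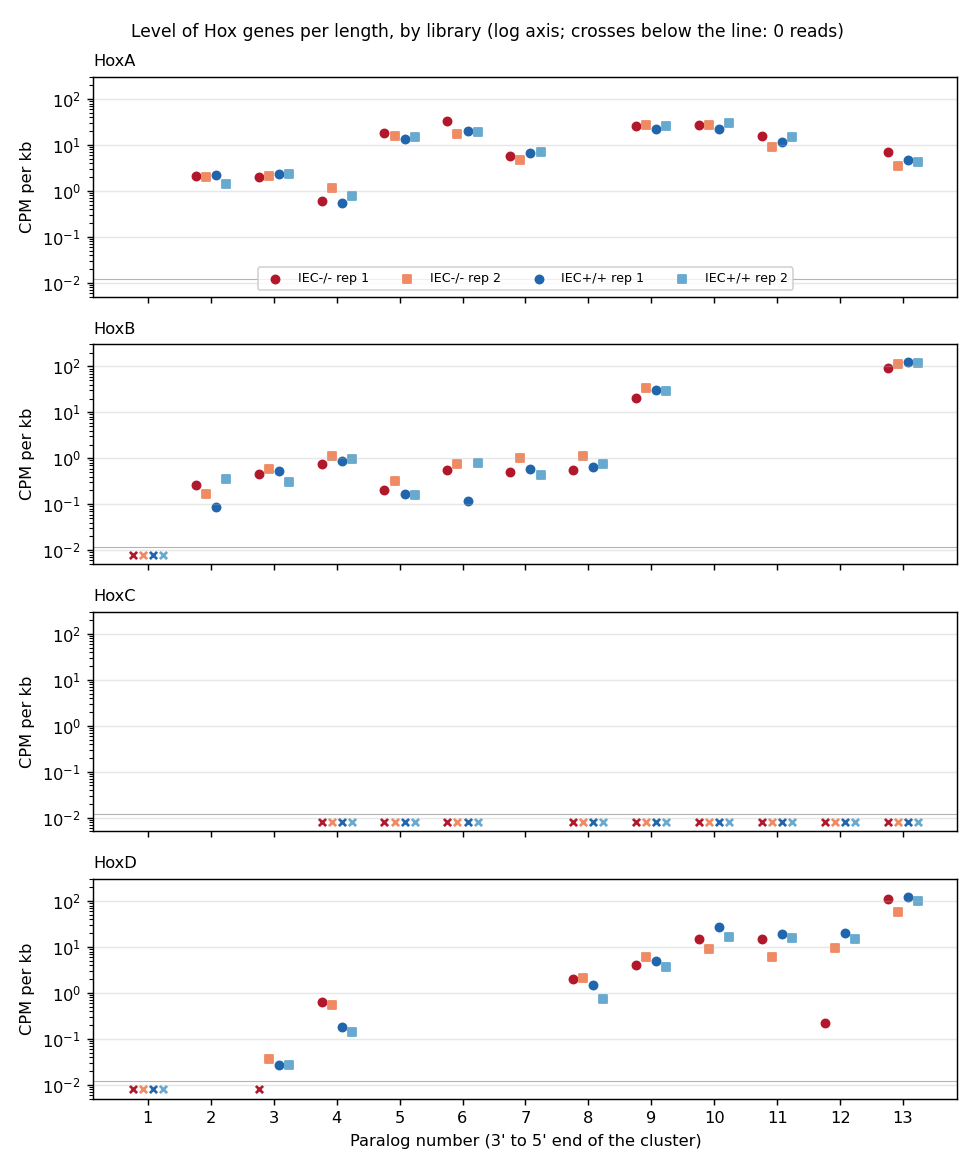
Level of 38 of the 39 Hox genes in CPM per kilobase of exon (log axis) by paralog number, one panel per cluster; circles and squares are single libraries, IEC-/- in red tones and IEC+/+ in blue, and crosses below the grey line are libraries with 0 reads. Levels climb towards number 13 in HoxB and HoxD, HoxC is at 0 throughout, and Hoxd12 is low in IEC-/- replicate 1.

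Hoxb13 and Hoxd13 were the most abundant members. Hoxb13, the last gene at the 5′ end of HoxB, was at 92.5 and 111 CPM per kilobase in IEC-/- and 125 and 116 in IEC+/+. Hoxd13, the last of HoxD, was at 109 and 57.8 CPM per kilobase in IEC-/- and 124 and 101 in IEC+/+. The ranges of these 2 genes over the 4 libraries overlapped, so neither led beyond its spread, but the lowest value of either lay above the highest of every other member. A second tier of Hoxb9, Hoxa10, Hoxa9 and Hoxa6 averaged 28.3, 26.7, 25.4 and 22.3 CPM per kilobase over the 4 libraries, with ranges that overlapped. Below it by mean came Hoxd10, Hoxa5, Hoxd11, Hoxa11 and Hoxd12 at 17.0, 15.5, 14.1, 12.8 and 11.1. By library these tiers overlapped, with Hoxd10 from 9.05 to 27.4 and Hoxa6 from 17.7 to 32.7 CPM per kilobase. Hoxd12 ranged from 0.227 in IEC-/- replicate 1 to 19.9 in IEC+/+ replicate 1, so its mean rank rests partly on a single library. By the longest transcript instead of all exons together, Hoxa9 took rank 3 and Hoxb9 rank 5.

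The 3 expressed clusters differed in how the level climbed from low to high numbers. In HoxB (chromosome 11, 96194316 to 96368256, GRCm38) there was a step: Hoxb2 to Hoxb8, 7 neighbouring genes, averaged 0.213 to 0.918 CPM per kilobase, and the next gene, Hoxb9, 28.3. In HoxA (chromosome 6) Hoxa2 to Hoxa4 averaged 0.780 to 2.22, Hoxa5 to Hoxa11 averaged 5.94 to 26.7, and Hoxa13 was lower again at 4.88. In HoxD (chromosome 2, 74668310 to 74765142) the level climbed over Hoxd3 at 0.0228, Hoxd4 at 0.376, Hoxd8 at 1.60, Hoxd9 at 4.72 and Hoxd10 at 17.0 CPM per kilobase. By mean it was lower in Hoxd11 at 14.1 and Hoxd12 at 11.1, and stood highest in Hoxd13 at 98.0. The Hoxd12 mean was drawn down by IEC-/- replicate 1, at 0.227 CPM per kilobase. Hoxd12 lay above Hoxd11 in IEC-/- replicate 2 (9.33 against 6.16) and IEC+/+ replicate 1 (19.9 against 19.7). It lay below Hoxd11 in IEC+/+ replicate 2 (14.9 against 15.7). As a description across genes, which are not independent replicates, Spearman's rho between paralog number and level was 0.933 in HoxD (n = 9 genes), 0.818 in HoxB (n = 10) and 0.645 in HoxA (n = 11). By library, rho ranged from 0.728 (IEC-/- replicate 1) to 0.95 in HoxD, 0.770 to 0.903 in HoxB and 0.627 to 0.691 in HoxA. Over all 39 genes, with HoxC at 0, it was 0.344. All genes of a cluster were read from the same libraries.

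HoxC had no reads while its neighbours did. The cluster lies on chromosome 15 from 102921103 to 103036852 (GRCm38), and 0 reads were assigned to its 9 genes in each of the 4 libraries. Calcoco1, the nearest counted protein-coding gene on one side, was at 51.4 and 52.5 CPM in IEC-/-, against 37.3 and 36.8 in IEC+/+. Smug1, a DNA repair gene and the nearest on the other side, was at 38.2 and 32.9 CPM in IEC-/-, against 39.4 and 44.4 in IEC+/+. The long noncoding RNA Hotair and the microRNA genes Mir196a-2 and Mir615, which lie within HoxC, also had 0 reads.

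Between the genotypes, none of the Hox genes was called. Of the 28 detected, 27 passed the filter on low counts, and 0 of the 27 had an adjusted p under 0.05 in edgeR's quasi-likelihood test, in either direction, against 0.12% of all 16637 genes called higher and 0.763% called lower. By unadjusted p under 0.05 there was 1 higher, Hoxd4, and 1 lower, Hoxd10, where 7.5% and 9.12% of all genes stood. DESeq2 and limma-voom also called 0, where over all genes DESeq2 called 2.9% higher and 4.87% lower, and limma-voom 0.0601% and 0.409%. The edgeR exact test called 1, Hoxd4, as higher, and over all genes 1.85% as higher and 3.37% as lower. The IEC-/- libraries lay above both IEC+/+ libraries for 5 of the 27 (Hoxa5, Hoxa9, Hoxb5, Hoxd4 and Hoxd8) and below both for 6 (Hoxa3, Hoxa7, Hoxb13, Hoxd10, Hoxd11 and Hoxd12), where 24% and 24.1% of all genes did, so the members' shares were near the background. The median log2 fold change was 0.20 over the 27 and 0.01 over all genes tested; without IEC-/- replicate 2 the Hox median was -0.03.

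**Figure D2:**
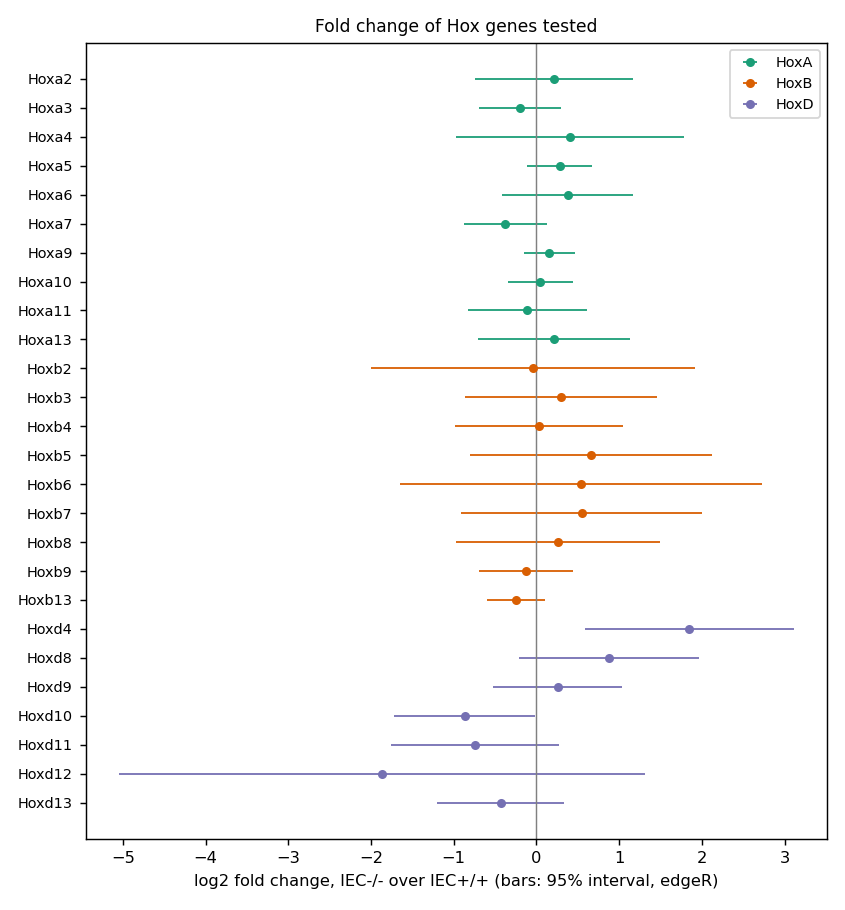
Log2 fold change of 26 of the 27 Hox genes tested, IEC-/- over IEC+/+, with 95% intervals from edgeR's quasi-likelihood test (2 libraries per group); colours mark the cluster. Only the intervals of Hoxd4 and Hoxd10 leave 0, neither passes adjustment over all genes, and the interval of Hoxd12 is the widest.

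Summed over members, Hox mRNA came to 1029 and 923 CPM in IEC-/-, against 1188 and 1103 in IEC+/+. By sums, most of the gap lay in a run of 4 neighbouring genes, Hoxd10 to Hoxd13. They summed to 361 and 210 CPM in IEC-/- (285 ± 107, SD, n = 2), against 491 and 385 in IEC+/+ (438 ± 75.4). The other 24 detected members summed to 668 and 713 CPM in IEC-/- (691 ± 32.1), against 697 and 719 in IEC+/+ (708 ± 15.2), a difference within the spread. That sum joins members that went both ways. Of the 23 tested among them, 17 averaged higher and 6 lower, and Hoxb13 averaged 225 CPM in IEC-/-, against 266 in IEC+/+. By cluster, HoxA summed to 385 and 348 CPM in IEC-/-, against 320 and 368 in IEC+/+, HoxB to 267 and 344 CPM in IEC-/-, against 362 and 340 in IEC+/+, and HoxD to 377 and 230 CPM in IEC-/-, against 507 and 395 in IEC+/+. The groups overlapped for HoxA and HoxB and did not for HoxD. The run was picked after its values were seen, and sums were given no test.

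Within the HoxD run IEC-/- replicate 2 was lower than replicate 1 for 3 of the 4 genes. Hoxd13, which patterns the digits and the end of the gut, had 270 and 144 CPM in IEC-/-, against 308 and 251 in IEC+/+ (log2 fold change of -0.43, SE 0.31, adjusted p = 0.55 by edgeR). Hoxd11, a limb and kidney patterning gene, had 62.9 and 26.0 CPM in IEC-/-, against 82.9 and 66.1 in IEC+/+ (-0.74, SE 0.41, adjusted p = 0.440 by edgeR). Hoxd10, expressed in the hindlimb and the lumbar cord, had 27.2 and 16.4 CPM in IEC-/-, against 49.8 and 29.7 in IEC+/+ (-0.87, SE 0.34, adjusted p = 0.295 by edgeR). The groups overlapped for Hoxd13 and did not for Hoxd11 and Hoxd10. For each of these 3 genes the lowest value of the 4 was that of IEC-/- replicate 2, the library with the squamous markers. Without IEC-/- replicate 2 the log2 fold change was -0.05 for Hoxd13, -0.25 for Hoxd11 and -0.55 for Hoxd10, and without IEC-/- replicate 1 it was -0.97, -1.53 and -1.28. Hoxd10 stood at -0.45 without IEC+/+ replicate 1. Of these 7 values, edgeR called those of Hoxd13 and Hoxd11 without IEC-/- replicate 1 (2.24% of all genes were called lower there), which set the library with the squamous markers alone against the IEC+/+ pair.

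Hoxd12 was almost absent from a single library. It lies between Hoxd13 and Hoxd11 (chromosome 2, 74675013 to 74677705, plus strand) and is a limb patterning gene that is used together with them. It had 16 and 620 reads in IEC-/- and 1306 and 998 in IEC+/+, or 0.58 and 23.6 CPM in IEC-/-, against 50.4 and 37.8 in IEC+/+. The groups did not overlap, but IEC-/- replicate 1 lay 41.1-fold below the lowest of the other 3 libraries, and with that spread the log2 fold change was -1.87 (SE 1.27, 95% interval -5.04 to 1.31, adjusted p = 0.532 by edgeR). With IEC-/- replicate 2 left out, the value was -6.25, called by edgeR where 2.33% of all genes were called lower, and restates that single library against the IEC+/+ pair; with replicate 1 left out it was -0.91 and was not called.

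The low value was not shared by the genes on either side. Per 100 reads of Hoxd13 there were 0.213 reads of Hoxd12 in IEC-/- replicate 1 (exact binomial 95% interval 0.122 to 0.346, for counting error only) and 16.5 in IEC-/- replicate 2 (15.1 to 17.9), against 16.4 (15.4 to 17.3) and 15.0 (14.1 to 16.1) in IEC+/+. Hoxd12 thus kept a nearly fixed ratio to Hoxd13 in 3 libraries, including the one in which Hoxd13 was lowest. Hoxd11 per 100 reads of Hoxd13 was 23.3 and 18.1 in IEC-/- and 26.9 and 26.3 in IEC+/+. Evx2, the homeobox gene beyond Hoxd13, had 21.9 and 8.81 CPM in IEC-/-, against 14.8 and 14.9 in IEC+/+, so it was highest in the library in which Hoxd12 was nearly absent. Of the 8411 genes with at least 20 CPM in each of the other 3 libraries, Hoxd12 was the only one at least 20-fold lower in IEC-/- replicate 1 than in the lowest of them. The same limits, which were set after the value of Hoxd12 was seen, found 0 genes for each of the other 3 libraries. None of the exons of Hoxd12 overlaps another annotated gene, and 0% of its 50-base stretches occur in transcripts of other genes. What lay behind the low count was not tested.

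**Figure D3:**
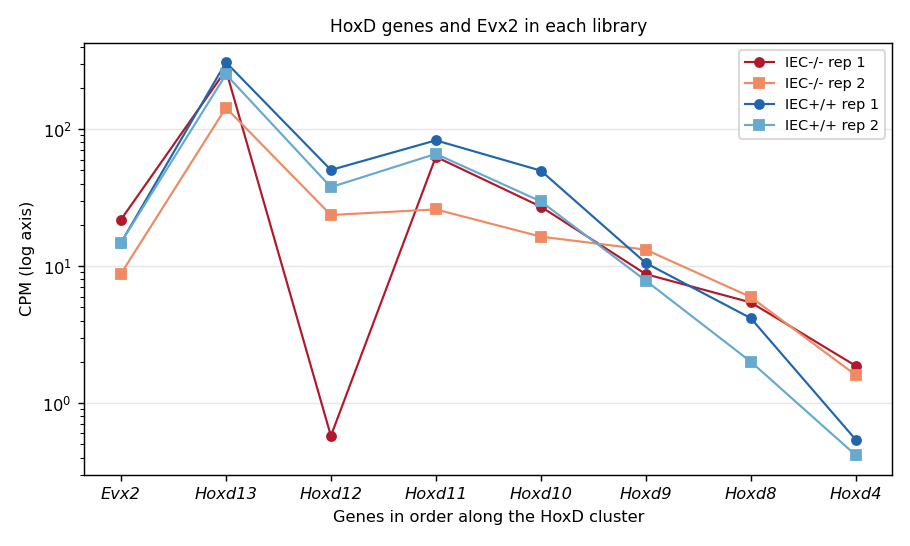
CPM (log axis) of Evx2 and the HoxD genes tested, in their order along chromosome 2, with a line for each of the 4 libraries. IEC-/- replicate 1 lies between the IEC+/+ libraries at Hoxd13, a little below both at Hoxd11 and Hoxd10, and drops to 0.58 CPM at Hoxd12. IEC-/- replicate 2 is lowest at Hoxd13, Hoxd11 and Hoxd10.

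The 250 bases before the annotated starts of these neighbours are shown because they hold the promoter-proximal sequence of the gene that was nearly absent from IEC-/- replicate 1 and of its neighbour that was not (RefSeq, GRCm38.p6, plus strand, Hoxd13 at chr2:74667975-74668224 and Hoxd12 at chr2:74674763-74675012).
Hoxd13: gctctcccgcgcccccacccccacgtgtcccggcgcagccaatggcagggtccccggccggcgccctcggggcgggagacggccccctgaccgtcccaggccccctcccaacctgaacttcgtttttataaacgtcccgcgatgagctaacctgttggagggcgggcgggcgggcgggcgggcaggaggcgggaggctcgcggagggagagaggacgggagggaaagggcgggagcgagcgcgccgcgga
Hoxd12: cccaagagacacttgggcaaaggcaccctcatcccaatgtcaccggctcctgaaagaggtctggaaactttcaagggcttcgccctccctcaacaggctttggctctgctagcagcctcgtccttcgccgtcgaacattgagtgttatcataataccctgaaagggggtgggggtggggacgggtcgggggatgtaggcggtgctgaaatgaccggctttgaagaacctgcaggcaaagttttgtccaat
The 2 windows are 74.4% and 55.6% G and C. Neither holds a match to TTTATG, a motif of the gut homeodomain factors Cdx1 and Cdx2, or to CTTTGAT, a motif of the TCF/LEF factors through which beta-catenin acts, on either strand.

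At the other end of HoxD, 2 genes of low level averaged higher in IEC-/-. Hoxd4, which acts in the hindbrain and neck of the mouse embryo, had 52 and 42 reads in IEC-/- and 14 and 11 in IEC+/+, or 1.87 and 1.60 CPM in IEC-/-, against 0.54 and 0.42 in IEC+/+. Both IEC-/- libraries lay above both IEC+/+ libraries, and the log2 fold change was 1.85 (SE 0.50, 95% interval 0.59 to 3.11, adjusted p = 0.172 by edgeR), the largest positive value among the members tested, without a call. By the exact test of edgeR its adjusted p was 0.0384. The value hardly depended on either IEC-/- library, at 1.95 without replicate 2 and 1.72 without replicate 1, each without a call. Of the exon bases of Hoxd4, 52.3% also belong to other annotated genes, among them Hoxd3 and the transcript Gm28230, and how shared reads were counted is not given in the sources used here. Hoxd3 itself had 0 and 4 reads in IEC-/- and 3 and 3 in IEC+/+. Hoxd8 had 5.43 and 5.95 CPM in IEC-/-, against 4.17 and 2.01 in IEC+/+ (0.88, SE 0.43, adjusted p = 0.397 by edgeR), and its exons overlap no other gene.

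The windows before Hoxd4 (chr2:74721728-74721977) and Hoxd8 (chr2:74704365-74704614), both on the plus strand, are shown because these members had the largest positive log2 fold changes. Capitals mark a Cdx match in Hoxd4 and a pair of TCF/LEF matches in Hoxd8.
Hoxd4: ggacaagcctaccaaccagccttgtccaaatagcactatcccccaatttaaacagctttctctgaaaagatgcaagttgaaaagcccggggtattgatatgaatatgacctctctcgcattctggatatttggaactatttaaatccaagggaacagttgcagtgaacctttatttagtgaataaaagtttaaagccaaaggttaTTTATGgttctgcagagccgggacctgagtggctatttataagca
Hoxd8: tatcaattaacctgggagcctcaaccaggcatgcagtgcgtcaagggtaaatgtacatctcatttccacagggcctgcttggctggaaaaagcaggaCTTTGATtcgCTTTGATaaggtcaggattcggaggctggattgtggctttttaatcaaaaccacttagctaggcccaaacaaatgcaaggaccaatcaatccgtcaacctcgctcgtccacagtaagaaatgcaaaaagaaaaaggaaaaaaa
RefSeq windows were found for 22 Hox genes, with 24 windows in all; Hoxb13 and Hoxb9 were not among them. A Cdx match stood in 5 of the 24 windows (20.8%) and in 10.8% of 32851 windows of the same length over all genes. A TCF/LEF match stood in 1 of the 24 (4.17%), that of Hoxd8, and in 3.21% of all windows. A match is a run of letters and does not show that a factor binds there.

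The central genes, those numbered 4 to 8, summed to 93.2 and 77.7 CPM in IEC-/- (85.4 ± 10.9, SD, n = 2), against 72.3 and 74.7 in IEC+/+ (73.5 ± 1.70), and those numbered 9 to 13 to 916 and 824 CPM in IEC-/- (870 ± 65.2), against 1094 and 1008 in IEC+/+ (1051 ± 60.8). Those numbered 1 to 3 summed to 19.5 and 21.0 CPM in IEC-/-, against 21.9 and 20.4 in IEC+/+. Of the 11 tested members numbered 4 to 8, 10 averaged higher in IEC-/-, with a median log2 fold change of 0.41, and 0 were called; of the 11 numbered 9 to 13, 4 averaged higher and 7 lower. The count of 10 for the central genes rested on single libraries: it was 6 of the 11 without IEC-/- replicate 2, 9 without IEC-/- replicate 1, and 8 and 10 without IEC+/+ replicate 1 and 2, with medians of 0.31, 0.72, 0.21 and 0.35. Hoxa7 was the central gene that averaged lower, at 16.3 and 13.5 CPM in IEC-/-, against 18.8 and 19.8 in IEC+/+ (-0.38, SE 0.20, adjusted p = 0.427 by edgeR).

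In HoxB the central genes had few reads. Hoxb5, a gene of enteric nerve and lung development, had 0.58 and 0.88 CPM in IEC-/-, against 0.46 and 0.45 in IEC+/+, from 12 to 23 reads a library (0.66, SE 0.59, adjusted p = 0.644 by edgeR). Hoxb7 had 0.79 and 1.56 CPM in IEC-/-, against 0.93 and 0.68 in IEC+/+ (0.55, SE 0.58, adjusted p = 0.708 by edgeR), and without IEC-/- replicate 2 its value was -0.03. Hoxb6 ranged from 6 to 41 reads within IEC+/+ alone. The posterior pair was abundant. Hoxb13, a gene of the tail end of the body, the prostate and the distal colon, had 204 and 246 CPM in IEC-/-, against 276 and 256 in IEC+/+, with no overlap between the groups (-0.24, SE 0.14, 95% interval -0.59 to 0.11, adjusted p = 0.461 by edgeR). Hoxb9 had 54.0 and 85.5 CPM in IEC-/-, against 77.5 and 74.4 in IEC+/+.

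In HoxA, the abundant genes Hoxa9 and Hoxa10 had narrow intervals. Hoxa9, known for its part in blood cell growth and leukaemia, had 148 and 151 CPM in IEC-/-, against 126 and 142 in IEC+/+ (0.15, 95% interval -0.15 to 0.46, adjusted p = 0.601 by edgeR), and Hoxa10, a gene of the lumbar spine and uterus and the most abundant member of HoxA per kilobase of all exons, though not by the longest transcript, where Hoxa9 led, had 87.7 and 89.7 CPM in IEC-/-, against 74.8 and 97.1 in IEC+/+ (0.05, SE 0.16, 95% interval -0.35 to 0.44, adjusted p = 0.926 by edgeR). Hoxa5, known for its part in lung and gut mesenchyme, had 949 and 778 reads in IEC-/-, against 648 and 728 in IEC+/+ (0.28, SE 0.16, adjusted p = 0.448 by edgeR). Hoxa6 was at 28.6 CPM in IEC-/- replicate 1 and between 15.5 and 17.3 CPM in the other 3 libraries, with a wider 95% interval, -0.41 to 1.17. Hoxa13, the gene of the terminal hindgut, had 17.3 and 8.54 CPM in IEC-/-, against 11.6 and 10.7 in IEC+/+ (0.21, SE 0.37, adjusted p = 0.837 by edgeR); its 2 IEC-/- values lay on either side of IEC+/+, and the estimate was -0.40 without replicate 1 and 0.63 without replicate 2, neither of them called. Hoxa11 had 35.2 and 21.2 CPM in IEC-/-, against 26.1 and 34.9 in IEC+/+, but 35% of its exon bases lie opposite Hoxa11os, and the use of strand is not given in the sources used here. IEC-/- replicate 2 was the lowest of the 4 libraries for Hoxa13, Hoxd13, Hoxa11 and Hoxd11 and the highest of the IEC-/- pair for Hoxb13 and Hoxb9.

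Hoxa2 to Hoxa4, Hoxb2 to Hoxb4, Hoxb8 and Hoxd9 had log2 fold changes between -0.20 and 0.41. Of these, Hoxa3 alone had groups that did not overlap, at 12.3 and 12.6 CPM in IEC-/-, against 14.3 and 14.3 in IEC+/+ (-0.20, SE 0.20, adjusted p = 0.681 by edgeR). Hoxb3 and Hoxb2 share 52.9% and 27.3% of their exon bases with Hoxb3os on the other strand, and Hoxa3 shares 27.1% with 5 other transcripts, so their counts are uncertain.

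Among noncoding transcripts of the clusters 0 of 9 tested were called by edgeR (1 higher, 0 lower by unadjusted p under 0.05), and 0 by DESeq2, limma-voom and the exact test. The 1 was Hottip, a long noncoding RNA beyond the 5′ end of HoxA that in human cells promotes the 5′ HoxA genes. It had 13.1 and 8.69 CPM in IEC-/-, against 4.55 and 6.43 in IEC+/+ (log2 fold change of 0.99, SE 0.34, adjusted p = 0.246 by edgeR). Its neighbour Hoxa13 was above IEC+/+ in one IEC-/- library and below it in the other, as given above. Evx1, the homeobox gene beyond Hottip, had 91.6 and 90.2 CPM in IEC-/-, against 71.4 and 51.1 in IEC+/+ (0.57, adjusted p = 0.225 by edgeR). Hoxa11os, the antisense partner of Hoxa11, was at 76.9 and 66.7 CPM in IEC-/-, against 70.1 and 76.6 in IEC+/+. The others with the smallest p, Hotairm2, Hoxb3os and Mir196a-1, were each under 3 CPM in every library, and polyadenylated libraries do not measure mature microRNAs.

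The Cdx factors act upstream of posterior Hox genes in the mouse embryo and hold intestinal identity in the adult. Cdx2 had 3.78 and 7.55 CPM in IEC-/-, against 24.9 and 18.8 in IEC+/+ (-1.95, SE 0.39, adjusted p = 0.0986 by edgeR), and Cdx1 had 111 and 77.7 CPM in IEC-/-, against 149 and 166 in IEC+/+ (-0.74, SE 0.20, adjusted p = 0.162 by edgeR). For both genes the groups did not overlap, IEC-/- being the lower, as it was for 24.1% of all genes tested. Cdx4 had 0 reads. Of the 8 tested genes in this list of Cdx and hindgut genes edgeR called 0 (2 higher, 3 lower by unadjusted p under 0.05). DESeq2 called Cdx1 and Cdx2 lower, where it called 4.87% of all genes lower. The exact test called Cdx2 lower, where it called 3.37%, and limma-voom called 0 of the list. Epithelial markers were lower in the same libraries, by a median log2 fold change of -0.85 over 12 genes, and their part in the Cdx values was not tested.

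The TALE homeodomain proteins bind DNA together with Hox proteins. The list of their genes also held Pbxip1, the gene of a PBX-interacting protein that is not itself a TALE protein. Of the 10 genes of this list tested, 9 averaged higher in IEC-/-, with a median log2 fold change of 0.43. Meis1, a partner of posterior Hox proteins, had 3.99 and 7.74 CPM in IEC-/-, against 1.51 and 1.70 in IEC+/+ (1.87, SE 0.45, adjusted p = 0.138 by edgeR). Pbx4 stood at 1.04 and Pknox1, the only member that averaged lower, at -0.30 on the log2 scale. EdgeR called 0 of the 10 (2 higher, 1 lower by unadjusted p under 0.05, where 7.5% and 9.12% of all genes stood). Meis1 was among those called higher by both DESeq2 and the exact test, which called 2.9% and 1.85% of all genes higher. Limma-voom called 0. The median was 0.73 without IEC-/- replicate 1 and 0.18 without IEC-/- replicate 2.

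No regulator of Hox chromatin was called. Of 20 Polycomb group genes, whose proteins keep Hox genes silent, 0 were called by edgeR (3 higher, 0 lower by unadjusted p under 0.05) and 0 by the other 3 tests, with a median log2 fold change of 0.19 (0.09 without IEC-/- replicate 1). In IEC-/- 17 of the 20 averaged higher and 3 lower. Both IEC-/- libraries lay above both IEC+/+ libraries for 10 of them and below both for 1, where 24% and 24.1% of all genes did. Among those with the smallest p, Bmi1, Rnf2 and Cbx7 had log2 fold changes of 0.37, 0.35 and 0.44 and adjusted p from 0.228 to 0.348 by edgeR. Of 13 Trithorax and H3K27 demethylase genes, which keep Hox genes active, 0 were called by edgeR (0 at an unadjusted p under 0.05) and 0 by the other 3 tests; Kdm6a, Psip1, Kdm6b and Wdr5 had the smallest p, at 0.27, 0.23, 0.22 and -0.17 on the log2 scale.

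Retinoic acid is an inducer of the 3′ Hox genes in the embryo. Of the 13 tested genes of its pathway, 9 averaged higher in IEC-/- and 4 lower, with a median log2 fold change of 0.11. EdgeR called 1 of the 13, Aldh1a3, which makes retinoic acid, as lower, where 0.763% of all genes were called lower. It had 80.4 and 55.1 CPM in IEC-/-, against 283 and 265 in IEC+/+ (-2.02, SE 0.21, adjusted p = 0.0413 by edgeR). The other Aldh1a genes tested averaged higher, with groups that overlapped and without a call. Stra6, which takes up retinol, stood at 0.45 and the receptor genes Rarg and Rxra at 0.57 and -0.39, with adjusted p of 0.164, 0.220 and 0.209 by edgeR. Among 6 tested foregut and small intestine genes, edgeR called 1 higher, where 0.12% of all genes were called higher. This was Sox2, a foregut and stomach factor, with 14.3 and 13.7 CPM in IEC-/-, against 3.55 and 3.78 in IEC+/+ (1.93, SE 0.24, adjusted p = 0.0461 by edgeR). Sox2 was also called by DESeq2 and the exact test, but not by limma-voom (adjusted p = 0.0555), with the replicate block (0.0571) or with a filter at a mean of 1 CPM (0.0511). Aldh1a3 was called in all 5 of these, and with either IEC+/+ library left out edgeR called 0 of all genes. The Sox2 level was alike in the 2 IEC-/- libraries. Their squamous markers summed to 25.8 and 2661 CPM, and the part of squamous tissue in the Sox2 value was not tested. The next 3 by p, Foxa3, Pdx1 and Pax9, had adjusted p from 0.580 to 0.612. Among 10 tested gut mesenchyme factors edgeR called 0 (1 higher, 1 lower by unadjusted p under 0.05) and limma-voom 0. DESeq2 and the exact test called 1, Isl1, as higher, where they called 2.9% and 1.85% of all genes higher. Isl1 had 87.2 and 28.9 CPM in IEC-/-, against 15.9 and 20.2 in IEC+/+ (1.69, SE 0.51, adjusted p = 0.205 by edgeR), and Hand2, Foxl1 and Tbx2 stood at -1.04, 0.48 and 0.36 on the log2 scale. The Isl1 value rested on IEC-/- replicate 1: it was 0.67 without that library and 2.27 without IEC-/- replicate 2.

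Markers of other cell types are given beside these values. Fibroblast markers, 10 of 10 detected, summed to 2533 and 2149 CPM in IEC-/-, against 3779 and 2311 in IEC+/+, and smooth muscle markers, 10 of 10, to 407 and 412 CPM in IEC-/-, against 676 and 315 in IEC+/+. Endothelial markers, 8 of 8, summed to 318 and 291 CPM in IEC-/-, against 262 and 254 in IEC+/+, and leukocyte markers, 10 of 10, to 1036 and 775 CPM in IEC-/-, against 567 and 527 in IEC+/+. Enteric neuron and glia markers summed to 24.2 and 14.2 CPM in IEC-/-, against 33.8 and 38.2 in IEC+/+, and the glial factor gene Sox10 had 1 and 0 reads in IEC-/-, against 0 and 2 in IEC+/+. The part of cell composition in the Hox levels was not tested.

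**Figure D4:**
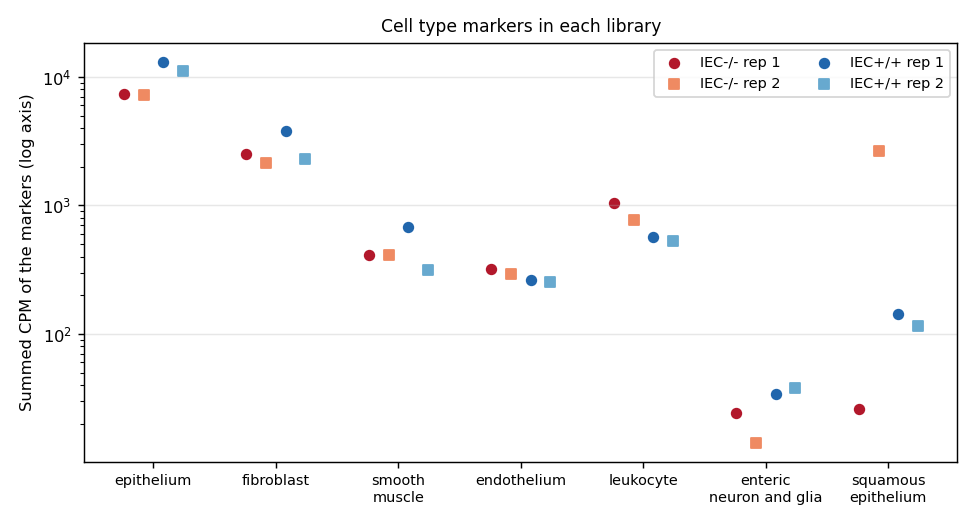
Summed CPM (log axis) of the markers of 7 cell types in each library, IEC-/- left of IEC+/+. Squamous markers reach 2661 CPM in IEC-/- replicate 2 only, and epithelial markers are lower in both IEC-/- libraries.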

How the data were processed

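Polyadenylated RNA of 4 mouse colon cancer tissue samples was sequenced as read pairs, per the labels' protocols. For each gene symbol the authors deposited a whole-number count of reads. The totals were unequal, so the counts were not scaled to a common total. Whether any other adjustment was made cannot be read from them. The build mm10 and the tools TopHat, edgeR and limma are named in the submitters' processing notes; how reads were assigned to genes, with which annotation and strand setting, is not given in the sources used here. Groups and replicate numbers are those of the titles.

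The genotypes were compared by edgeR 4.0.16 (R 4.3.3): TMM scaling, the default filter on low counts (16637 of 20618 genes with a count kept), a quasi-likelihood F-test with genotype as the only term, and Benjamini-Hochberg adjustment over all genes tested, with a call at an adjusted p under 0.05. Each SE is the log2 fold change over the root of F, with 95% intervals, and the common biological coefficient of variation was 0.248. CPM use the scaled library sizes, with factors from 0.955 to 1.05. Exon lengths, coordinates (GRCm38, the assembly also called mm10) and overlaps came from the GENCODE M21 annotation, and 39 of 39 Hox genes were found in it; promoter windows came from RefSeq. No 2 libraries agreed within sampling noise: the chi-square of the counts divided by its degrees of freedom was 58.8 within IEC-/-, 29.9 within IEC+/+ and 77.4 to 113 across groups. The test was checked on simulated counts.

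Alternatives were DESeq2 1.42.0, limma-voom (limma 3.58.1), the exact test of edgeR, other scalings and filters, the replicate number as a block, and each library left out. Fully described are Hox genes with an unadjusted p under 0.05, the 4 with the largest positive and the 4 with the largest negative log2 fold change, the most abundant of each cluster and paralog number 13; of other lists, the 4 genes with the smallest p. A few genes of these lists, and 1 Hox gene in both text and figures, are counted in the totals but not reported here by name. The members and lists were chosen with earlier results of these data known.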

Additional observations from a re-analysis of the deposited data

How the results depend on the processing

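Calls were few and depended on the library and the tool. Against 147 genes called over the whole table, total counts without scaling gave 83, no filter 376, limma-voom 78, the exact test of edgeR 869 and DESeq2 1293, and leaving out one library gave 0 to 729. Hox genes called higher numbered 0 except 1 by the exact test, and those called lower 0 except with one library left out (0 to 2). The Hox median of 0.20 was 0.31 on total counts, which moved the median of all genes to 0.12, and -0.0258 to 0.16 with one library left out. The replicate numbers were not shown to pair the libraries: deviations of same-numbered libraries correlated at 0.16 over 16637 genes, with 2 pairs only, and the labels do not say what a number marks. With the replicate block the Hox median was 0.15, 0 Hox genes and 211 genes in all were called. Sign changes with one library left out were followed only for the fully described Hox genes and the genes with the smallest p of other lists. Among these, values that changed sign ranged from -0.13 to 0.24 for Hoxa10, -0.40 to 0.63 for Hoxa13 and -0.0258 to 0.95 for Hoxb7. The ranges were -0.0428 to 1.12 for Hotairm2, -1.78 to 0.10 for Hoxb3os, -0.16 to 0.58 for Mir196a-1 and -0.58 to 2.12 for Pax9. Other Hox genes changed sign as well: 10 of 11 central genes averaged higher with all libraries and 6 without IEC-/- replicate 2. The cause was not tested. Members with under 100 reads in a library, most of those numbered 1 to 8 in HoxB, are limited by depth.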
